A study of Mus musculus with 8 samples.

Results

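Mast cells and basophils were followed here through 8 genes of their granule proteases, IgE receptor and histamine synthesis, all 8 of them present among the 29955 gene names of the series. They were listed by name, and the rule uses no measured value. The members and the gene lists below were nonetheless chosen with earlier results of these data known. Shares over all genes set beside their counts are therefore a description only. 5 encode granule proteases (Cpa3, Mcpt8, Prss34, Tpsb2 and Cma1), 2 encode chains of the high-affinity IgE receptor (Fcer1a and Ms4a2) and 1 encodes the enzyme that makes histamine (Hdc). RNA had been sequenced from bone marrow of WT and Ripk3-KO mice, sorted into LSK and LK cells. LSK cells (Lin-, Sca1+, Kit+) hold the stem cells and multipotent progenitors. LK cells (Lin-, Sca1-, Kit+) hold the committed myeloid progenitors. There were 4 groups of 2 libraries: WT LSK, Ripk3-KO LSK, WT LK and Ripk3-KO LK.

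The labels give the strain as CD57BL6/J and state that no treatment was given, whereas the study's text places the RNA-seq 1 month after a course of fractionated X-irradiation of both genotypes. No age is given for these mice. The knockout is carried by every cell of the animal, and the study's methods state that WT controls were purchased. No source says that replicates came from separate mice, so p-values measure only the spread between these libraries, which may be technical. Recovered reads ran from 9782166 to 16280811 per library. Ripk3 was at 145 ± 3.45 CPM in WT LSK and 1.97 ± 1.45 in Ripk3-KO LSK (SD, n = 2), and at 167 ± 3.21 in WT LK and 15.3 ± 4.39 in Ripk3-KO LK, in the direction of the labels. Ly6a, which encodes Sca1, was at 146 ± 32.1 CPM in WT LSK and 1.44 ± 0.815 in WT LK. Xist was read in each WT library and Eif2s3y, on the Y chromosome, in each Ripk3-KO library only, while Ddx3y was listed at 0 in all 8, so genotype and sex cannot be told apart in any genotype comparison below. Some broadly used genes are also listed near 0 (Inpp5d, chosen after its values were seen, had 0 to 31 reads per library), and a 0 is therefore given as listed.

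Mast cells and basophils arise from Kit-bearing myeloid progenitors and share a set of granules loaded with proteases and histamine. On their surface FcεRI binds IgE, and cross-linking of this receptor by antigen releases the granules. Carboxypeptidase A3 and Hdc mark progenitors of both lineages, Mcpt8 and Prss34 are used as basophil proteases, and the tryptase Tpsb2 and the chymase Cma1 belong to mature mast cells of connective tissue. GATA factors, in particular Gata2, are known regulators of several of these genes.

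By the GENCODE annotation of GRCm38, all 8 are protein-coding. Cpa3 lies at chr3:20215620-20242181, Hdc at chr2:126593667-126619299, Fcer1a at chr1:173221284-173227214 and Ms4a2 at chr19:11615523-11623719, each on the minus strand. Prss34 (chr17:25298394-25300165) and Tpsb2 (chr17:25366305-25369098) are plus-strand neighbors. Cma1 (chr14:55941451-55944675) and Mcpt8 (chr14:56082166-56085273), both on the minus strand, lie 153 kb and 293 kb from Ripk3 itself (chr14:55784995-55788865). Cma1 shares a stretch of 295 bases at 96.9% identity with the pseudogene Gm48934, so that its reads could have been split between the copies. No such stretch of at least 200 bases and 90% identity was found for the other members.

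The 250 bases before the gene start as RefSeq places it are shown for 4 members whose levels carry the comparisons below: Cma1, which differed between genotypes in LSK, Cpa3 and Ms4a2, which were higher in LK in both genotypes, and Prss34, which was lower in LK of WT mice. The sequences are from RefSeq on GRCm38.p6, read 5′ to 3′ on the strand of the gene, at chr14:55944676-55944925 (minus strand), chr3:20242182-20242431 (minus), chr19:11623720-11623969 (minus) and chr17:25298144-25298393 (plus). Capitals mark GATA motifs, searched on both strands as AGATAA or the form AGATAG, and as TGATAA or the form TGATAG.
Cma1: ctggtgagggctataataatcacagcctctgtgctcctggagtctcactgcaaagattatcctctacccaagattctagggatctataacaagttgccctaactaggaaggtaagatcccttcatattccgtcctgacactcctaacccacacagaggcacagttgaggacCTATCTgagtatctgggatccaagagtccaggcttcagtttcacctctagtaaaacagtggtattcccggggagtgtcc
Cpa3: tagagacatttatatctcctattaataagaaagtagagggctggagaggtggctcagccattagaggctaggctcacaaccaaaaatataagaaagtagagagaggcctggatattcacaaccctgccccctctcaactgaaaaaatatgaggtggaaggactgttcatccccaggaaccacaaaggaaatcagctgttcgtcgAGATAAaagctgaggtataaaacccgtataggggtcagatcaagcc
Ms4a2: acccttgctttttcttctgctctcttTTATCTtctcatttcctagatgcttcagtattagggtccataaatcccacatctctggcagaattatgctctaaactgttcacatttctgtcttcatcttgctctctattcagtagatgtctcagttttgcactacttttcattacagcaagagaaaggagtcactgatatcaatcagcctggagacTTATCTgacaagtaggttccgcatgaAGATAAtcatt
Prss34: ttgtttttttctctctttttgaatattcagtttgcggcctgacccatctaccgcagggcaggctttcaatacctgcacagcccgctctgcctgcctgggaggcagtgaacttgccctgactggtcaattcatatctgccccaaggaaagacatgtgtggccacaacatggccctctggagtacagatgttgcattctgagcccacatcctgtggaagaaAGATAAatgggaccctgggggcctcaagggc
Of the 7 members with a RefSeq promoter entry (all but Tpsb2), 6 held such a motif in this window, compared with 27.1% of 27025 promoters. Ms4a2 held 3, starting 224, 37 and 11 bases before the gene start. The single motif began 46 bases before the start of Cpa3, 31 before Prss34, 79 before Cma1, 92 before Fcer1a and 221 before Hdc, and Mcpt8 held none. The RUNX motif TGTGGT was found in 3 of the 7 (14.2% of all promoters), TTGCNNAA in 1 (9.55%), CATGTG or CACGTG in 2 (17.6%), GAGGAA in 2 (23.1%), TATAAA on the gene strand in 2 (8.12%) and TTCNNNGAA in 0 (7.18%). These are matches of letters, not sites of binding. The RefSeq start is also the GENCODE start for the 4 members shown, but lies within the GENCODE gene for Hdc and Mcpt8 and just outside it for Fcer1a.

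Levels below are CPM, reads scaled for library size on a single scale over all 8 libraries. Genotype differences, and the minimum mean of 1 for testing them, used the values as deposited, which are scaled within each population. Population differences used the CPM. Differences are log2 changes of (value + 1) with their SE from limma, which understate the change of low genes, and adjusted p-values are from limma with Benjamini-Hochberg adjustment over all genes tested. In bulk libraries, fewer cells of a type and less RNA per cell cannot be told apart.

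The proteases of the basophil lineage and Cpa3 were not called between genotypes. Cpa3, a carboxypeptidase stored in granules, was at 33.5 and 21.6 CPM in WT LSK, 45.1 and 34.1 in Ripk3-KO LSK, 163 and 141 in WT LK and 200 and 202 in Ripk3-KO LK. Both Ripk3-KO libraries lay above both WT libraries in each population. The log2 change with genotype was 0.52 ± 0.25 (SE) in LSK (adjusted p = 0.282, limma) and 0.39 ± 0.25 in LK (adjusted p = 0.869), and neither passed the test.

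Mcpt8, a serine protease of basophils, was at 58.5 and 49.0 CPM in WT LSK, 62.8 and 57.9 in Ripk3-KO LSK, 82.4 and 82.1 in WT LK and 96.0 and 98.0 in Ripk3-KO LK. The genotypes overlapped in LSK and did not in LK, with log2 changes of 0.17 ± 0.23 and 0.23 ± 0.23 (SE).

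Prss34, another basophil protease, was at 94.7 and 136 CPM in WT LSK, 109 and 89.9 in Ripk3-KO LSK, 54.8 and 37.1 in WT LK and 76.4 and 92.9 in Ripk3-KO LK. The genotypes overlapped in LSK, and in LK both Ripk3-KO libraries were the higher. Its log2 change was -0.20 ± 0.26 in LSK and 0.88 ± 0.25 in LK (adjusted p = 0.219, limma).

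**Figure D1:**
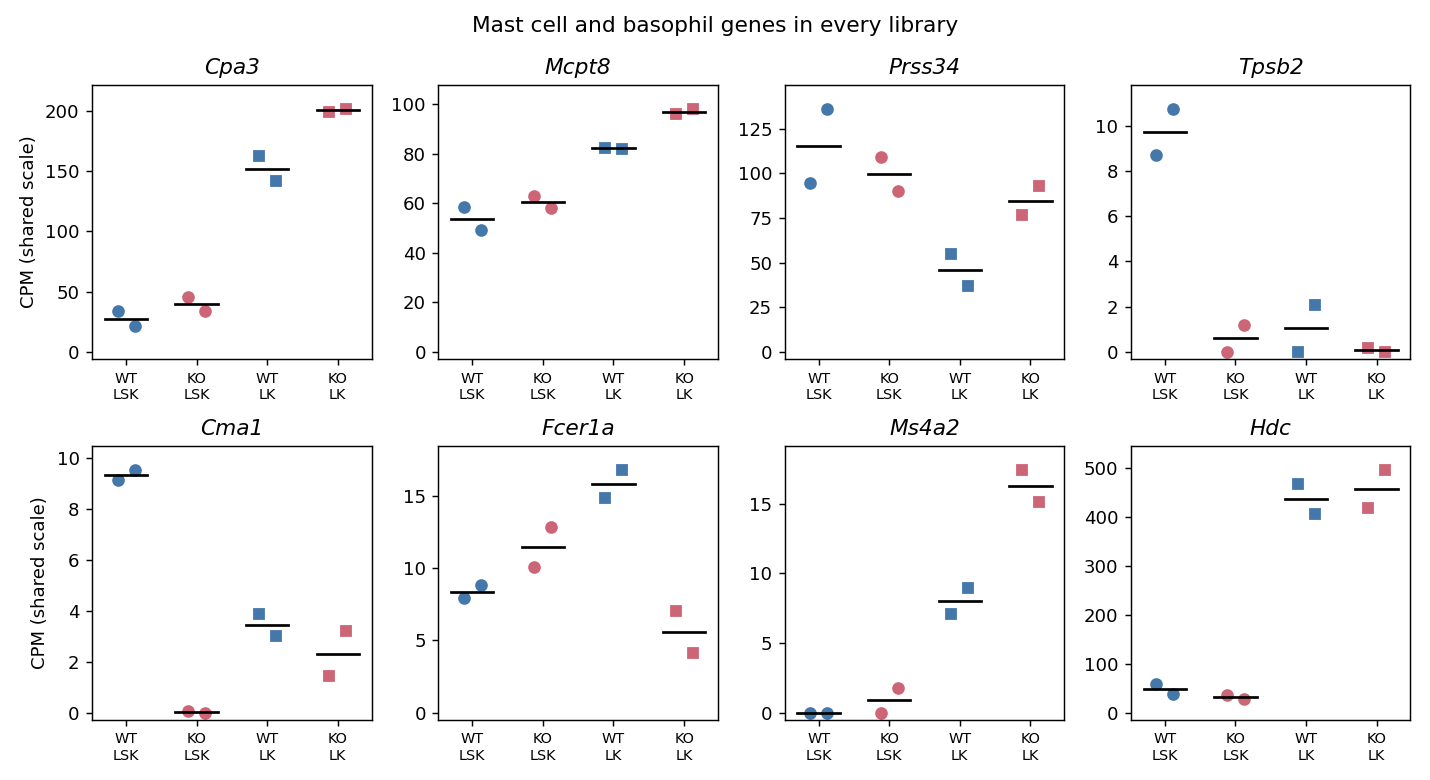
Level of each of the 8 genes (y axis, CPM on a scale shared by all libraries) in the 4 groups (x axis); circles are LSK and squares LK libraries, blue WT and red Ripk3-KO, and the black line is the mean of 2 libraries. Cma1 and Tpsb2 are high in the WT LSK libraries alone among LSK, while Cpa3, Hdc and Ms4a2 are high in all LK libraries.

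Of the proteases of connective tissue mast cells, Cma1 was lower in Ripk3-KO LSK by each tool and Tpsb2 by limma alone. Cma1, the mouse chymase, was at 9.15 and 9.55 CPM in WT LSK and at 0.0712 and 0 in Ripk3-KO LSK, from 105 reads in each WT library against 1 and 0 reads. The groups lay far apart, while in LK, at 3.87 and 3.01 CPM in WT and 1.44 and 3.20 in Ripk3-KO, they overlapped. In LSK the log2 change was -3.49 ± 0.61 (SE, adjusted p = 0.00255 in limma, 0.00539 in edgeR and 0.00022 in DESeq2). The ratio of summed reads, WT over Ripk3-KO, was 240 with a 95% interval of 42.7 to 9542 (exact, for counting error only). In LK the log2 change was -0.45 ± 0.62 and did not pass.

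Tpsb2, a tryptase, was at 8.72 and 10.7 CPM in WT LSK, 0 and 1.20 in Ripk3-KO LSK, 0 and 2.07 in WT LK and 0.144 and 0 in Ripk3-KO LK. Its WT LSK libraries stood above all other libraries. The log2 change with genotype in LSK was -2.97 ± 0.67 (adjusted p = 0.0207 in limma), but the call was not made by edgeR (adjusted p = 0.327) or DESeq2 (0.616). It was also lost without WT LSK replicate 1, without WT LSK replicate 2 or without Ripk3-KO LSK replicate 1, with log2 changes of -3.10, -2.83 and -2.34. Tpsb2 was too low in LK to be tested.

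The receptor chains were low, and neither passed a test between genotypes. Fcer1a, the chain that binds IgE, was at 7.93 and 8.82 CPM in WT LSK, 10.04 and 12.8 in Ripk3-KO LSK, 14.9 and 16.8 in WT LK and 7.06 and 4.13 in Ripk3-KO LK. The Ripk3-KO libraries were the higher pair in LSK and the lower pair in LK, without overlap in either. The log2 changes were 0.40 ± 0.49 (adjusted p = 0.707, limma) and -1.37 ± 0.49 (adjusted p = 0.441), and neither passed.

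Ms4a2, the β chain that amplifies the signal of the receptor, was listed at 0 in both WT LSK libraries and at 0 and 1.80 CPM in Ripk3-KO LSK, and stood at 7.05 and 8.96 in WT LK and 17.4 and 15.2 in Ripk3-KO LK. It was not tested between genotypes in LSK because its mean was under the minimum. In LK both Ripk3-KO libraries were the higher, with a log2 change of 0.93 ± 0.65 (adjusted p = 0.883, limma).

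Hdc, histidine decarboxylase, was at 58.4 and 37.9 CPM in WT LSK, 36.0 and 27.8 in Ripk3-KO LSK, 466 and 405 in WT LK and 417 and 495 in Ripk3-KO LK. The genotypes did not overlap in LSK and did in LK. The log2 changes were -0.57 ± 0.23 (adjusted p = 0.195, limma) and 0.056 ± 0.23 (adjusted p = 0.982).

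Counted together, 7 of the 8 members passed the minimum mean of 1 in the LSK genotype comparison, and 2 of those were called, both lower in Ripk3-KO (Cma1 and Tpsb2). Over all 16817 genes tested there, 2.16% were called, and 1.27% were called lower. edgeR and DESeq2 each called 1 member, Cma1, compared with 1.24% and 3.63% of all genes. The genotypes did not overlap for 5 of the 7 tested members, compared with 44.6% of all genes. The median log2 change of the tested members was -0.20, beside -0.0086 over all genes.

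In LK, limma called 0 of the 7 members tested, compared with 0.473% of 13949 genes. 2 members (Prss34 and Fcer1a) had an unadjusted p under 0.05, compared with 6.56% of all genes. edgeR and DESeq2 also called 0, compared with 0.373% and 1.24% of all genes. 5 of the 7 did not overlap between genotypes, compared with 40% of all genes, and the median log2 change was 0.23, beside 0.0093 over all genes.

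**Figure D2:**
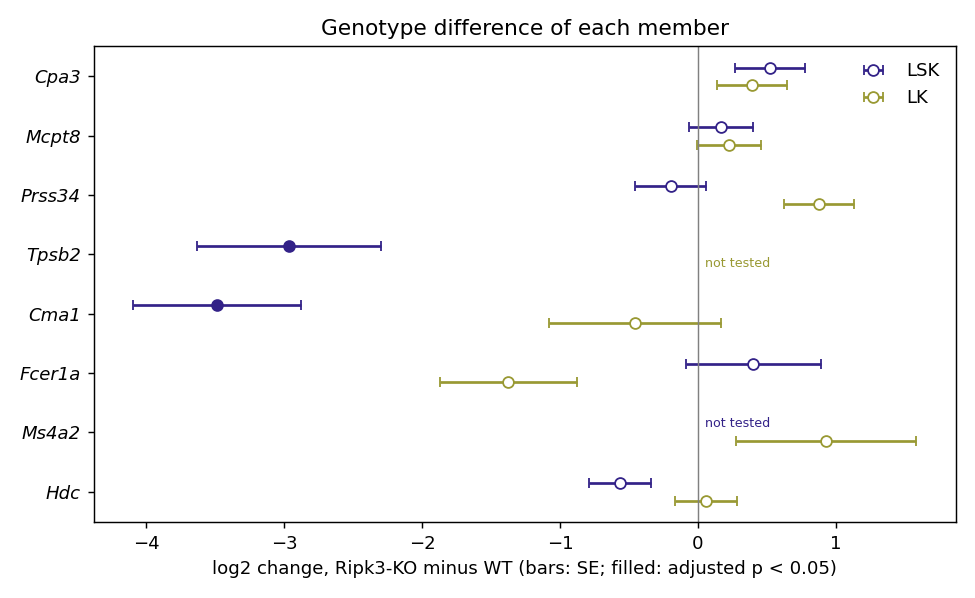
Log2 change of each member between genotypes (x axis, Ripk3-KO minus WT, bars are SE) in LSK and LK; filled points passed an adjusted p of 0.05 in limma. Cma1 at -3.49 and Tpsb2 at -2.97 in LSK are the filled points.

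The test of whether the genotype difference itself differed between LSK and LK called 0 of the 8 members in limma, compared with 0.358% of 15901 genes, although 4 had an unadjusted p under 0.05 (Prss34, Tpsb2, Cma1 and Fcer1a), compared with 10.1% of all genes. edgeR called 0 (0.264% of all genes) and DESeq2 called 1 (0.968%), Cma1 (adjusted p = 0.0173, DESeq2). The difference, LSK minus LK, was -3.03 ± 0.87 (SE) on the log2 scale for Cma1 (adjusted p = 0.207, limma), 1.77 ± 0.69 for Fcer1a (adjusted p = 0.397) and -1.07 ± 0.36 for Prss34 (adjusted p = 0.293). The lower Cma1 in Ripk3-KO LSK is therefore not shown by limma to be particular to LSK.

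Markers of other cell types moved beside the lower Cma1 and Tpsb2. Of 11 neutrophil granule genes, 6 were higher in Ripk3-KO LSK and 5 in Ripk3-KO LK by limma, with none lower. Over all genes, limma called 150 of 16817 higher in LSK and 14 of 13949 in LK. Ltf, the lactoferrin of secondary granules, was at 26.6 ± 5.56 CPM in WT LSK and 183 ± 7.67 in Ripk3-KO LSK (SD, n = 2), a log2 change of 2.76 ± 0.23 (adjusted p = 2.41e-07, limma). Ngp and Camp, also of secondary granules, rose by 2.02 and 1.98 on the log2 scale in LSK and by 2.12 and 1.74 in LK, and Lcn2 by 1.86 and 1.23. The calprotectin genes S100a8 and S100a9 rose by 1.55 and 1.44 in LSK, and in LK S100a9 rose by 1.04. The 6 calls in LSK, and those of Ltf, Ngp and Camp in LK, were made without each library in turn. In limma without its trend setting, these LK calls were lost (adjusted p = 0.0556 to 0.234). So were the LSK calls of S100a8 (0.0704) and S100a9 (0.0771), and the LK calls of Lcn2 (0.546) and S100a9 (0.555). Limma with no filter also ended the LK calls of Lcn2 (0.277) and S100a9 (0.152). That of Lcn2 was lost too in limma with a pseudocount of 0.1 (0.0559) or quantile normalization (0.127). In LK the call of Lcn2 was lost without any 1 of the 4 LK libraries (adjusted p = 0.0504 to 0.668, limma) and in edgeR (0.0583), and that of S100a9 without WT LK replicate 1 (0.115), Ripk3-KO LK replicate 1 (0.193) or Ripk3-KO LK replicate 2 (0.0581). The summed level of the 11 genes ran from 7314 to 8252 CPM in WT LSK and from 7198 to 8290 in Ripk3-KO LSK, since it is carried mostly by Mpo, Elane and Prtn3, none of which passed in limma, while DESeq2 called Elane lower in LSK (adjusted p = 0.0313). The part of these cells in the protease result was not tested.

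Of the other marker lists, the stem cell and sort genes had 1 call between genotypes in LSK (Flt3, 0.78 ± 0.19 on the log2 scale, lost without any 1 of the 4 LSK libraries) and 0 of 8 in LK. The erythroid list had 1 of 8 in LK (Car2, lower by -0.73) and the monocyte and dendritic list 1 of 8 in LK (Cd74, 1.17). Over all genes, limma called 2.16% in LSK and 0.473% in LK. The call of Car2 was lost without WT LK replicate 1 (adjusted p = 0.443, limma), Ripk3-KO LK replicate 1 (0.304) or Ripk3-KO LK replicate 2 (0.0863), and that of Cd74 without WT LK replicate 1 (0.0642) or Ripk3-KO LK replicate 2 (0.148). Car2 and Cd74 also lost their calls in limma with no filter (0.347 and 0.12) and with no trend (0.677 and 0.546). Limma called 0 eosinophil, 0 megakaryocyte and 0 lymphoid genes in either population. At an unadjusted p under 0.05, the eosinophil list had 3 genes in LSK and 3 in LK, the megakaryocyte list 1 and 0, and the lymphoid list 1 and 0, and edgeR called 0 in all 3 lists. Over all genes, 6.56% had such a p in LK, and the share in LSK is not given here or below. DESeq2 called Epx (adjusted p = 0.00846) and Dntt (0.0306) in LSK, with log2 changes in limma of 1.53 and 0.80. The summed level of the eosinophil genes ran from 89.1 to 99.7 CPM in WT LSK and from 128 to 145 in Ripk3-KO LSK. Lymphoid genes summed to 267 to 280 CPM in WT LSK and 405 to 460 in Ripk3-KO LSK, mostly Dntt.

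Cma1 belongs to a cluster of protease genes on chromosome 14. The other mast cell chymases of the cluster were at or near 0: Cma2, Mcpt1 and Mcpt9 were listed at 0 in all 8 libraries, and Mcpt2 had reads in WT LSK only. Mcpt4, a chymase of connective tissue mast cells, was at 1.57 and 1.55 CPM in WT LSK, 0 and 0.171 in Ripk3-KO LSK, 0 and 0 in WT LK and 0.504 and 0 in Ripk3-KO LK. It was too low to be tested. Its summed reads in LSK (35 in WT against 2 in Ripk3-KO) gave a ratio of 20.0 with a 95% interval of 5.15 to 172. That interval covers counting error only, not the spread between libraries, and is no test of genotype. Gzmb, at the far end of the cluster, had a log2 change of -1.61 in LSK (adjusted p = 0.182, limma), and Ctsg, next to Mcpt8, 0.022. Among the 49 genes within 1 Mb of Ripk3 that were tested in LSK, Cma1 was the 1 call by limma, compared with 2.16% of all genes. Among 42 tested in LK limma called 0, compared with 0.473% of all genes.

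**Figure D3:**
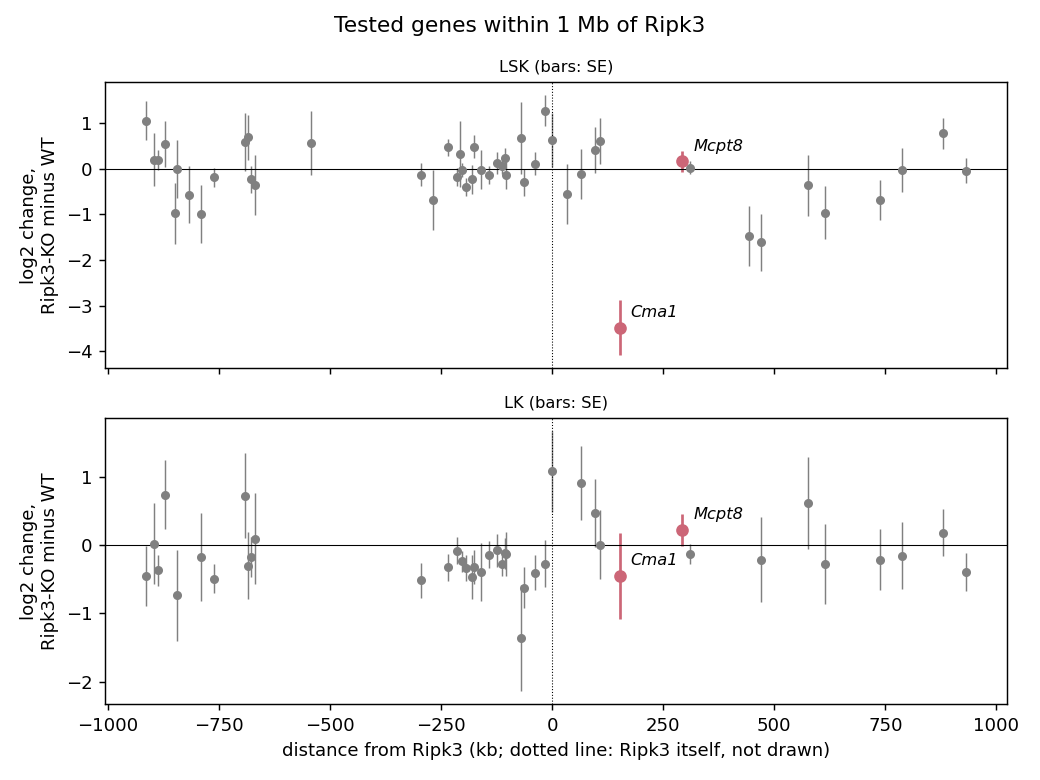
Log2 change between genotypes (y axis, Ripk3-KO minus WT, bars are SE) of the tested genes within 1 Mb of Ripk3 against their distance from it in kb (x axis), in LSK (top) and LK (bottom); members are red. Cma1 stands apart at -3.49 in LSK, and Mcpt8, farther along, is near 0.

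Outside chromosome 14, the tryptase Tpsab1, a relative of Tpsb2, was at 3.14 and 4.82 CPM in WT LSK and 1.78 and 0.0856 in Ripk3-KO LSK, with a log2 change of -1.58 (adjusted p = 0.203, limma). Of the 9 other protease genes listed, not all of them tied here to mast cells or basophils, 3 were tested in LSK. Limma, edgeR and DESeq2 called 0 of these, with 2 at an unadjusted p under 0.05.

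From LSK to LK, the members as a group did not move in a single direction. Cpa3, Hdc and Ms4a2 were higher in LK in both genotypes. Hdc was at 48.2 ± 14.5 CPM in WT LSK and 436 ± 42.9 in WT LK (SD, n = 2), a log2 change of 3.18 ± 0.23 (SE, adjusted p = 1.1e-09, limma), and 3.80 ± 0.23 in Ripk3-KO. Cpa3 rose by 2.45 ± 0.25 in WT (adjusted p = 3.99e-07) and by 2.32 ± 0.26 in Ripk3-KO (adjusted p = 5.99e-07). Ms4a2 had a fitted log2 change of 3.16 ± 0.64 in WT (adjusted p = 0.00108, limma). With WT LSK taken at 3 reads over the group, its mean in WT LK was 59.9-fold higher. That ratio rests on the listed 0 and allows for no spread between libraries. In Ripk3-KO its fitted log2 change was 3.37 ± 0.64 (adjusted p = 0.00055, limma), a call that DESeq2 did not make (0.166).

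The other members differed in direction between the genotypes or passed in only 1 of them. Prss34 fell by 1.31 on the log2 scale in WT (SE 0.26, adjusted p = 0.000851, limma), whereas in Ripk3-KO the change was -0.23 ± 0.26 (adjusted p = 0.600) and the libraries overlapped. Tpsb2 fell by 2.61 in WT (adjusted p = 0.00714, limma), a call not made by edgeR (0.187) or DESeq2 (0.463) nor without WT LK replicate 1. In Ripk3-KO, Tpsb2 was too low to be tested. Mcpt8 had log2 changes of 0.61 ± 0.24 in WT (adjusted p = 0.0634) and 0.68 ± 0.24 in Ripk3-KO (adjusted p = 0.0472), the latter called in limma and lost in edgeR (0.0528). Cma1 was at -1.23 ± 0.61 in WT and 1.63 ± 0.62 in Ripk3-KO (adjusted p = 0.0689), where edgeR (0.00681) and DESeq2 (0.00382) did call it. Fcer1a was at 0.84 ± 0.50 and -0.94 ± 0.49 and passed in neither. As each population contrast shares its libraries with the genotype contrasts, these are the same values seen from the other side.

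In WT, 8 members were tested and 5 called, 3 higher and 2 lower in LK, compared with 23.9% of 15950 genes (14.8% higher and 9.16% lower). In Ripk3-KO, 7 were tested and 4 called, all higher in LK, compared with 20.2% of 15237 genes (12.2% higher). Groups did not overlap for 8 of 8 and 6 of 7 members, compared with 64% and 57.5% of all genes. Of all genes called in WT, 61.7% were higher in LK on the shared scale and 29.1% with the values as deposited, which are scaled apart in each population, and in Ripk3-KO 60.5% and 28.7%. The median over all genes shifted from -0.077 to -0.41 in WT and from -0.0024 to -0.34 in Ripk3-KO, while each member kept its direction.

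**Figure D4:**
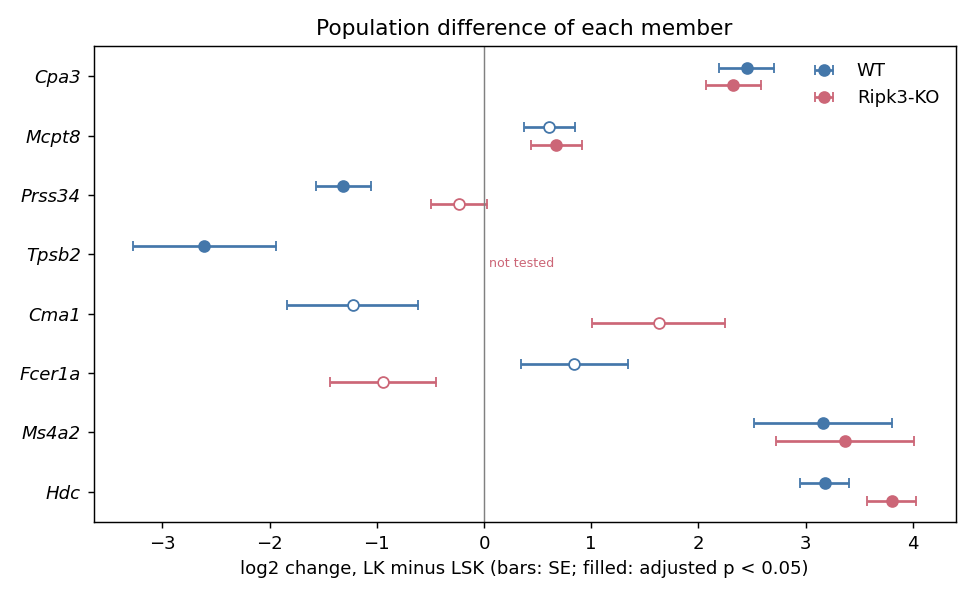
Log2 change of each member between populations (x axis, LK minus LSK, bars are SE) in WT and Ripk3-KO; filled points passed an adjusted p of 0.05 in limma. Cpa3, Ms4a2 and Hdc lie between 2.32 and 3.80 in both genotypes, and Prss34 is filled in WT only.

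Per kb of GENCODE exons pooled over the transcripts of a gene, the order of the members changed with the population. By this length Hdc spans 6389 bases and Cpa3 1517, so the order depends on the length taken. In WT LSK, Prss34 led with 94.5 ± 24.0 CPM per kb (SD, n = 2), followed by Mcpt8 (53.9 ± 6.72) and Cpa3 (18.2 ± 5.51), and these neighbors did not overlap. Cma1, Fcer1a, Hdc and Tpsb2 came next, between 8.58 and 6.10 CPM per kb, each overlapping the next in its libraries. Ripk3-KO LSK had the same first 3 genes, then Fcer1a (11.5) and Hdc (4.99), with Tpsb2, Ms4a2 and Cma1 all at or under 0.376 and overlapping. In WT LK the order was Cpa3 (100 ± 9.93), Mcpt8 (82.4 ± 0.235), Hdc (68.2 ± 6.72) and Prss34 (37.7 ± 10.3), with no overlap between neighbors. In Ripk3-KO LK, Cpa3 (132) and Mcpt8 (97.2) again led, and Hdc (71.4) and Prss34 (69.4) overlapped.

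Read as shares of the members' summed CPM per kb, Prss34 took 41.0% and 54.4% in WT LSK and 13.7% and 10.4% in WT LK. Cpa3 took 11.7% and 6.95% in WT LSK and 32.6% and 31.8% in WT LK, and Hdc 4.83% and 2.89% against 22.2% and 21.6%. In Ripk3-KO LSK and LK the same 3 shares were 45.2% and 42.6% against 16.9% and 19.2% for Prss34, 15.0% and 13.0% against 35.5% and 33.4% for Cpa3, and 2.84% and 2.52% against 17.6% and 19.5% for Hdc. On this scale Prss34 had the largest share in every LSK library, and Cpa3 in every LK library. In reads not divided by length, Hdc led in every LK library, with 51.2% to 58.9% of the members' reads against 20.3% to 24.5% for Cpa3. In LSK, Prss34 led by reads as well, with 35.0% to 49.7%.

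**Figure D5:**
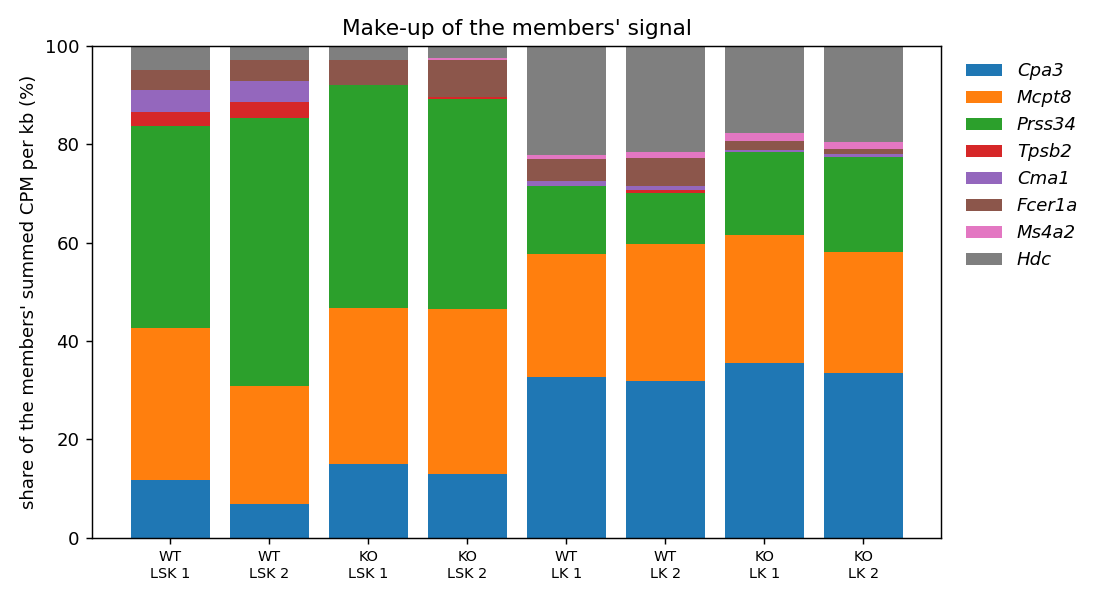
Share of each member in the members' summed CPM per kb of pooled exons (y axis, percent) in each of the 8 libraries (x axis, KO stands for Ripk3-KO). Prss34 takes 41.0% to 54.4% in LSK and 10.4% to 19.2% in LK, where Cpa3 and Hdc take more.

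Genes that work with the members were described by lists. Of the transcription factors of these lineages, 15 were tested in each comparison, and 2 were lower in Ripk3-KO LSK and 1 in Ripk3-KO LK. Over all genes, limma called 213 of 16817 lower in LSK and 52 of 13949 in LK. Bhlhe40, a factor that basophils and mast cells use for cytokine production, was at 197 ± 30.9 CPM in WT LSK and 67.2 ± 4.85 in Ripk3-KO LSK (SD, n = 2), and at 37.1 ± 2.84 and 14.4 ± 4.02 in LK. Its log2 change was -1.54 ± 0.27 in LSK (adjusted p = 0.00291, limma) and -1.33 ± 0.28 in LK (adjusted p = 0.0222). Leaving out WT LSK replicate 2 or Ripk3-KO LSK replicate 1 ended the LSK call (adjusted p = 0.087 and 0.0575), and leaving out any WT LK library or Ripk3-KO LK replicate 1 ended the LK call (0.129 to 0.571). Limma with no trend ended both Bhlhe40 calls (0.0821 in LSK and 0.546 in LK), and no filter ended the LK call (0.226). Gata1, a factor of the erythroid, megakaryocyte, mast cell and eosinophil lineages, fell by 1.32 on the log2 scale in Ripk3-KO LSK (SE 0.28, adjusted p = 0.0128), a call lost without WT LSK replicate 1 (0.123) or Ripk3-KO LSK replicate 2 (0.142). The Gata1 call was also lost in limma with no filter (0.0601), with no trend (0.138) and in a separate fit of each population (0.126). Gata2, at 183 ± 17.2 CPM in WT LSK and 200 ± 12.6 in Ripk3-KO LSK, and Spi1 (the gene of PU.1), at 137 and 161, did not pass.

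Of the IgE receptor signaling genes, 18 of 19 were tested and limma and edgeR called 0 between genotypes, with 2 at an unadjusted p under 0.05 in LSK and 3 in LK. DESeq2 called Prkcd in LSK (adjusted p = 0.031) and Fyn in LK (0.0447), with log2 changes in limma of 0.66 and -1.24. Vav1, Prkcd and Pik3cd were the most abundant in LK, at 365, 222 and 181 CPM in WT LK. From LSK to LK, 5 rose and 2 fell in WT, and 4 rose and 2 fell in Ripk3-KO, compared with 23.9% and 20.2% of all genes called. Among them Fcer1g, the γ chain of the receptor, rose by 0.92 and 0.89 on the log2 scale.

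Granule matrix and mediator genes showed 0 calls between genotypes in limma, edgeR and DESeq2 (13 tested in LSK, 2 at an unadjusted p under 0.05, and 12 in LK with 0). Srgn, the serglycin core protein that holds granule proteases, was at 1439 CPM in WT LSK and 1856 in WT LK, above Cd63 (419 and 763) and Vamp8 (543 and 470). Between populations, 3 rose and 2 fell in WT and 5 rose and 4 fell in Ripk3-KO, compared with 23.9% and 20.2% of all genes called. Hpgds, the prostaglandin D synthase of mast cells, fell by 3.42 on the log2 scale in WT and by 1.73 in Ripk3-KO.

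The cytokine and surface receptors likewise had 0 calls between genotypes in limma and edgeR, with 3 of 15 tested at an unadjusted p under 0.05 in LSK and 1 of 14 in LK. Kit, the stem cell factor receptor that mast cells need, was at 229 ± 46.8 CPM in WT LSK and 361 ± 70.7 in Ripk3-KO LSK, and DESeq2 called it (adjusted p = 0.0428). Cd34 was at 842 and 1099 CPM. From LSK to LK, Fcgr3 rose by 3.19 in WT and 3.11 in Ripk3-KO, and Il1rl1, the IL-33 receptor, by 1.91 and 1.97. Among the other listed proteases, Prss57 rose by 2.31 and 2.22 and Gzmb by 2.07 and 3.39. Which cells these reads came from was not tested.

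The genes whose pattern over the 8 libraries was nearest to a member's were ranked by the root mean square difference of centered log2(CPM + 1), over 10694 genes, as a description. Nearest to Cpa3 were Vcam1 (0.19), Serpine2 (0.20) and Afap1 (0.22), and nearest to Mcpt8 were Bnip2 (0.059), Ivns1abp (0.060) and Hp1bp3 (0.083). Prss34 was nearest to Alg14 (0.17), Pkp3 (0.18) and Sfxn4 (0.20), and Fcer1a to Atmin (0.28), Csnk1e (0.29) and Sap30l (0.30). Hdc was nearest to Aqp1 (0.22), Mpo (0.26) and Rab44 (0.27). Ms4a2 had only distant neighbors, Pram1 (0.46), Atp8b4 (0.46) and Gpr141 (0.51). Cma1 and Tpsb2 were under a mean of 5 CPM and were not ranked. Mpo, the gene of myeloperoxidase, rose from 4679 ± 387 CPM in WT LSK to 57582 ± 6594 in WT LK, beside the 9.05-fold higher mean of Hdc.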

How the data were processed

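Values of the 8 libraries were used as deposited. Per the labels, mRNA libraries were stranded, and the submitters' processing notes name TopHat and mm9. The counter was not given in the sources used here. The deposited columns are headed FPKM, but each library's nonzero values (100%) divide by a step of its own into whole numbers (tolerance 0.01). The signal that the authors deposited is thus reads scaled by TMM within each population, without division by length. The design assumed that scaling might differ between populations. Reads were recovered, and CPM with TMM factors over all 8 libraries gave the population comparisons.

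Log2(value + 1) was fitted with limma 3.58.1 (trend, 4 group means, two-sided, called at an adjusted p under 0.05), testing genes whose mean in the compared libraries was at least 1. With 2 libraries against 2, the smallest p of exact permutation is 0.333. Alternatives were edgeR 4.0.16, DESeq2 1.42.0, other filters, pseudocounts and scalings, a replicate block and leaving out each library. The 8 members and the lists were chosen with earlier results of these data known. Genes named were the members, list genes called between genotypes (at most 6 a list), the 3 most abundant list genes in LK, the 3 genes most like each member with a mean of at least 5 CPM, neighbors of Ripk3, and sex-linked genes. Of these, abundant genes of the marker lists are named only where a result turned on them. Older names were used for 3 list genes. Copies were sought with BLAST 2.17.0. The scripts were tested on simulated data. Replicate numbers were not taken to pair libraries. Replicate deviations correlated between -0.15 and 0.02 across groups, which cannot decide whether LSK and LK libraries came from the same mice. Intervals cover counting error only.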

Additional observations from a re-analysis of the deposited data

Results flagged for a closer look

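Fcer1a was singled out because its genotype difference points opposite ways in the 2 populations. Both Ripk3-KO libraries lay above both WT libraries in LSK (10.04 and 12.8 CPM against 7.93 and 8.82) and below both in LK (7.06 and 4.13 against 14.9 and 16.8). The difference between the 2 log2 changes was 1.77 ± 0.69 (SE), and the test of that difference did not pass (adjusted p = 0.397 in limma, 0.467 in edgeR and 0.275 in DESeq2).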

How the results depend on the processing

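The lower Cma1 in Ripk3-KO LSK was called under each of its 19 alternatives, with log2 changes from -7.95 to -3.06. The count of members called in LSK was 1 rather than 2 with a pseudocount of 0.1, no filter, edgeR, DESeq2, no trend or a separate fit of each population, and 1 to 2 when leaving out each library, Tpsb2 being the call lost. In LK it was 0 under all 19. For the difference between populations in the genotype effect, DESeq2 called 1. Of the population comparisons, the count ran from 4 to 6 in WT and from 3 to 5 in Ripk3-KO. Mcpt8 in Ripk3-KO lost its call under 14 of 20 alternatives. None of the values that reversed had passed a test. Leaving out each library also moved log2 changes that kept their sign and passed no test, from 0.22 to 0.83 for Cpa3, -0.87 to -0.26 for Hdc, 0.23 to 0.57 for Fcer1a and 0.040 to 0.29 for Mcpt8 in LSK, and from -0.82 to -0.083 for Cma1 in LK. Among values that changed sign, it moved the log2 change of Prss34 in LSK from -0.46 to 0.061 and of Hdc in LK from -0.062 to 0.17, and the difference between populations from -0.93 to 0.68 for Ms4a2, from -0.17 to 0.44 for Cpa3 and from -0.19 to 0.064 for Mcpt8. The difference for Ms4a2 was 1.20 with a pseudocount of 0.1, 5.46 in edgeR and 4.73 in DESeq2, and that for Cpa3 was -0.062 with quantile normalization. The cause was not tested. Over all genes, no filter left 198 calls in LSK and 9 in LK, and no trend 120 and 3, compared with 363 and 66.

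Replicate numbers were taken only to name the libraries. With a replicate block, 2 members were called in LSK, 0 in LK, 0 for the difference, 5 between populations in WT and 3 in Ripk3-KO, where Mcpt8 was lost. Taking LSK and LK libraries of equal number as pairs gave 5 and 3, and the crossed pairing in Ripk3-KO, chosen after seeing the data, gave 4. Members with under 1 CPM rest on few reads, since 3 reads are worth 0.186 to 0.311 of signal.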
